A study of Mus musculus with 6 samples.

Results

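The cholesterol synthesis and SREBP2 pathway genes are 26 mouse genes listed by name, with earlier results of these data known. They hold 20 enzymes of the mevalonate and sterol pathway, in the order of its steps. The other 6 genes are listed as regulators or targets of the transcription factor SREBP2. Mylip is among these 6 by that listing, though its gene is driven by another factor, LXR. All 26 were among the 55487 genes of the count table, and all 26 were among the 14046 genes with enough counts to be tested. The libraries came from livers of 3 mice given GalNAc-siRnf10 and 3 given GalNAc-siNC, 1 library for each mouse. Both are small interfering RNAs (siRNAs) joined to N-acetylgalactosamine, a sugar that the asialoglycoprotein receptor of hepatocytes takes up. GalNAc-siRnf10 is directed at Rnf10, which encodes a ubiquitin ligase of the RING finger family, and GalNAc-siNC is the control siRNA. All 6 mice were wild type, male C57BL/6J animals on a normal chow diet, were injected under the skin, and had their livers taken at 17 weeks of age. The study's methods name the conjugate GalNAc-siRnf10-2, and the labels name it GalNAc-siRnf10. The dose of this experiment is not given in the sources used here, and the knockdown was made with 1 siRNA.

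Cholesterol is built from acetyl-CoA. The mevalonate arm joins acetyl-CoA units and turns them into isoprenoid units, the next steps join those into squalene, and the last steps close the sterol ring and trim it to cholesterol. The liver is a main site of this synthesis. SREBP2, encoded by Srebf2, is held in the endoplasmic reticulum with its escort SCAP by INSIG proteins while sterols are plentiful. When sterols are scarce, SCAP carries it to the Golgi, where it is cut, and the released part enters the nucleus and switches on the genes of the pathway, often together with the factors NF-Y and Sp1.

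Total counts were between 26854377 and 33058645 per library, and 3 counts, the smallest share that this depth could show, were at most 1.12e-05% of a library (counting error only). Rnf10, the targeted gene, had normalized counts of 3869, 4536 and 4040 in the GalNAc-siNC mice and 1738, 1820 and 1793 in the GalNAc-siRnf10 mice. Its log2 fold change was -1.22 (standard error, SE, 0.0715; adjusted p = 3.29e-09), so every library matched its label. A normalized count is the count scaled by edgeR's TMM method to the mean library size, and a gene was called where its p from the quasi-likelihood test of edgeR, adjusted by the Benjamini-Hochberg method over all genes tested, was under 0.05. GalNAc-siNC mouse 1 stood apart from the other GalNAc-siNC mice, with a chi-square per gene of 30.7 and 30.04 against 10.3 between the other two. The pairs of GalNAc-siRnf10 mice gave 4.70 to 5.37. The labels do not say whether the mice of a group were treated or processed separately, beyond a shared batch label, so the p-values measure the spread between these mice.

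Of the 26 genes, 18 were lower in GalNAc-siRnf10 mice, 0 were higher by edgeR or by any other tool run, and 8 were not called. No gene reached a positive log2 fold change at an unadjusted p under 0.05. Over all genes tested, 7.28% were called lower and 6.71% were called higher. In GalNAc-siNC mean count, 9475 tested genes were at or above Mylip, the lowest of the 26. Of these, 933 (9.85%) were called lower and 788 higher. The median log2 fold change was -0.42 for the 26 genes and 0.0022 for all genes tested, and 23 of the 26 values were negative. The called genes fell by between 13.9% (Acat2) and 45.1% (Hmgcs1), and 6 of them fell at least 1.5-fold. In 19 of the 26 genes, the 18 called genes and Ggps1, every GalNAc-siRnf10 mouse was below every GalNAc-siNC mouse. The groups did not overlap in that direction for 16.4% of all genes tested, and for 1878 of the 9475 at or above Mylip. An exact two-sided permutation test gave p = 0.1 for each of these 19 genes, the smallest p that 3 mice against 3 allow. In bulk liver, fewer cells of a type and less RNA per cell cannot be told apart.

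The shift was present in each treated mouse. Against the GalNAc-siNC mean, the median log2 difference over the 26 genes was -0.41, -0.46 and -0.37 in GalNAc-siRnf10 mice 1, 2 and 3, and 0.0011, -0.039 and 0.0011 in GalNAc-siNC mice 1, 2 and 3. Of the 26 genes, 23, 24 and 23 lay below the GalNAc-siNC mean in the 3 GalNAc-siRnf10 mice. The 26 genes together took 0.431%, 0.396% and 0.409% of all counts in the GalNAc-siNC mice and 0.294%, 0.290% and 0.298% in the GalNAc-siRnf10 mice. Without GalNAc-siNC mouse 1, 20 genes were called lower.

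**Figure D1:**
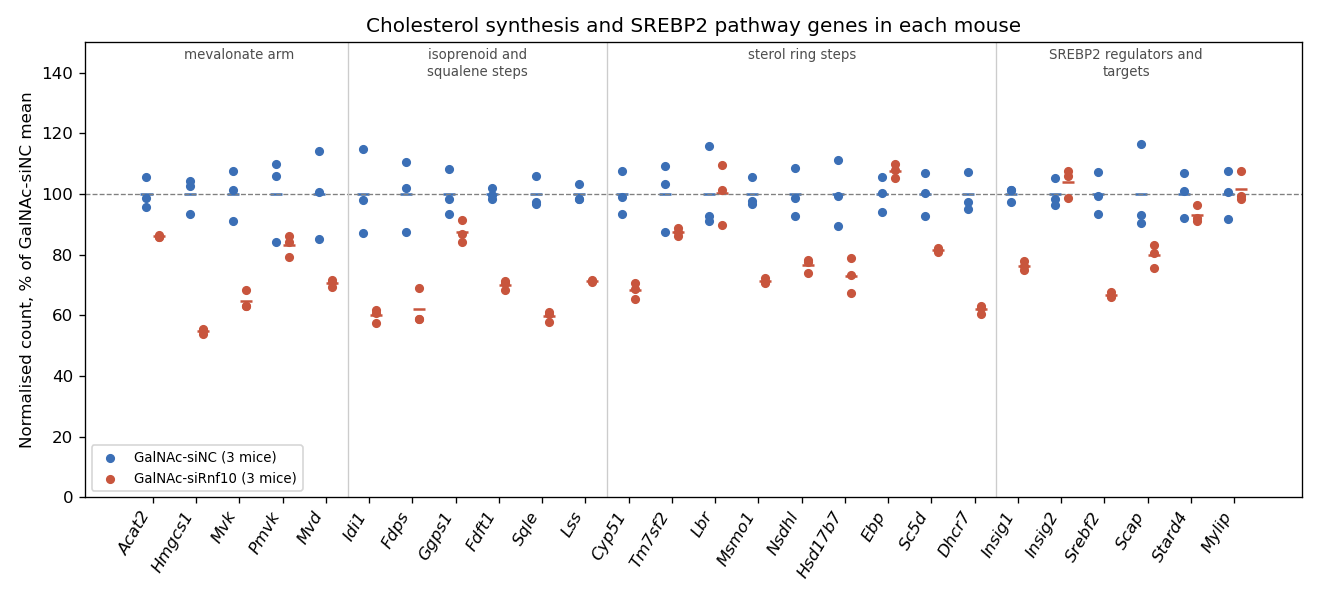
Normalized count of each of the 26 genes in each mouse, as a percentage of that gene's GalNAc-siNC mean (y axis), with genes in pathway order (x axis). Points are mice, 3 per group, and short bars are group means; Hmgcs1 shows the widest gap, and Ebp, Insig2, Lbr and Mylip have GalNAc-siRnf10 means at or above 100%.

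In the mevalonate arm, 4 of 5 genes were called lower and the median log2 fold change was -0.50. Hmgcs1 (ENSMUSG00000093930, GRCm38 chromosome 13, 119690379 to 119708260, plus strand), the cytosolic HMG-CoA synthase, had the largest fall of the 26 genes. It had normalized counts of 16620, 14887 and 16360 in the GalNAc-siNC mice and 8823, 8568 and 8869 in the GalNAc-siRnf10 mice. The means were 15956 ± 935 and 8753 ± 162 (SD, n = 3 mice each), and the log2 fold change was -0.87 (SE 0.0575, adjusted p = 1.45e-08). The groups were far apart, and the 3 treated mice lay close together. Mvk, mevalonate kinase, was at 1207, 1426 and 1345 in the GalNAc-siNC mice and at 908, 839 and 835 in the GalNAc-siRnf10 mice. It fell by 35.1%, a log2 fold change of -0.62 (SE 0.0828, adjusted p = 5.32e-05). Mvd, which makes isopentenyl diphosphate, was at 916, 1225 and 1080 against 746, 769 and 761. Its log2 fold change was -0.50 (SE 0.0973, adjusted p = 0.00196), with GalNAc-siNC mouse 1 nearest to the treated mice.

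Acat2, the cytosolic acetyl-CoA acetyltransferase that opens the pathway, had the smallest fall of the called genes. It was at 1933, 1876 and 2066 in the GalNAc-siNC mice and at 1684, 1679 and 1693 in the GalNAc-siRnf10 mice, a log2 fold change of -0.22 (SE 0.0684, adjusted p = 0.0439). It is also uncertain, since 33.9% of its transcript windows of 75 bases also occur in transcripts of Acat3 or Tcp1, and how reads shared by several genes were counted is not given in the sources used here. Acat3 had a log2 fold change of 0.08 and was not called. Acat2 lost its call without GalNAc-siNC mouse 3 (-0.18, adjusted p = 0.128) and with any 1 of the GalNAc-siRnf10 mice left out. Pmvk, phosphomevalonate kinase, was at 770, 1005 and 967 against 771, 788 and 725, and with GalNAc-siNC mouse 1 among the treated mice the groups overlapped. Its log2 fold change was -0.26 (95% interval -0.47 to -0.053, adjusted p = 0.0912), and without GalNAc-siNC mouse 1 it was -0.37 (adjusted p = 0.000556).

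**Figure D2:**
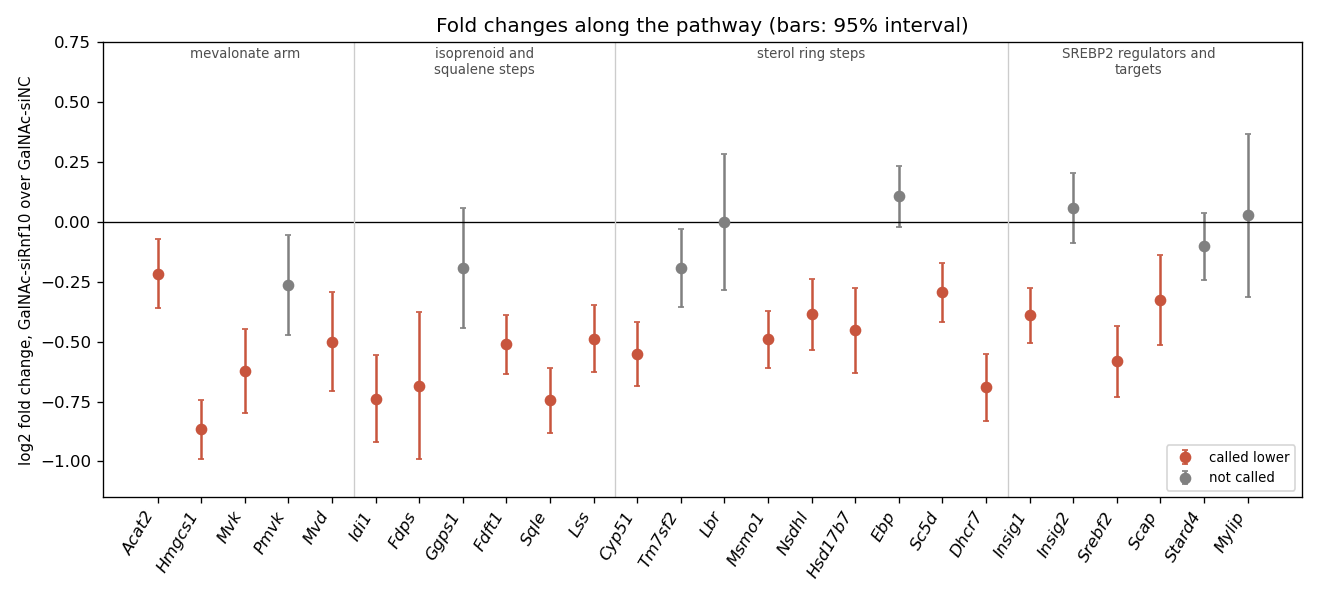
Log2 fold change, GalNAc-siRnf10 over GalNAc-siNC (y axis), of the 26 genes in pathway order (x axis). Points are edgeR estimates from 3 mice per group and bars their 95% intervals; the 18 called genes lie between -0.87 and -0.22, and the other 8 between -0.26 and 0.11.

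Of the 6 isoprenoid and squalene genes, 5 were called lower and the median log2 fold change was -0.60. Sqle, squalene epoxidase, a rate-controlling enzyme of the pathway, was at 4952, 4554 and 4522 in the GalNAc-siNC mice and at 2851, 2827 and 2696 in the GalNAc-siRnf10 mice. Its log2 fold change was -0.74 (SE 0.0641, adjusted p = 3.3e-07), the second largest fall of the 26 genes. Idi1, isopentenyl-diphosphate isomerase, was at 5909, 4480 and 5052 against 3183, 2953 and 3130, a log2 fold change of -0.74 (SE 0.0856, adjusted p = 2.73e-05). The GalNAc-siNC mice spread more widely for Idi1 than for Sqle, yet both groups stayed apart. Lss, lanosterol synthase, which closes the sterol ring, was at 2212, 2320 and 2206 against 1610, 1599 and 1596. It fell by 28.7%, a log2 fold change of -0.49 (SE 0.0659, adjusted p = 6.42e-05), and the 3 treated mice differed from each other by less than 1 SD of the control mice.

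Fdft1, squalene synthase, was at 5720, 5935 and 5809 against 4115, 4162 and 3974, a log2 fold change of -0.51 (SE 0.058, adjusted p = 9.2e-06). On the opposite strand, 774 bases of its exons overlap Ctsb, which encodes cathepsin B. Ctsb had between 14747 and 19524 raw counts per library and a log2 fold change of -0.05, so without a known strand setting the level of Fdft1 is uncertain. Fdps, farnesyl diphosphate synthase, had few counts, 195, 227 and 246 against 154, 131 and 131, and a log2 fold change of -0.68 (SE 0.145, adjusted p = 0.00376). Its level is uncertain too, since 26.7% of its exon bases are also annotated to Gm43738 on the same strand and 23.5% of its windows occur in transcripts of other genes. Ggps1, geranylgeranyl diphosphate synthase, which leads away from sterols, was at 271, 258 and 298 against 232, 252 and 240. The groups did not overlap, but the log2 fold change of -0.19 was not called (95% interval -0.44 to 0.06, adjusted p = 0.329). Arid4b, on the opposite strand, overlaps 257 bases of its exons and had more counts than Ggps1, so its level is uncertain. Of the 26 genes, 4 (Acat2, Idi1, Fdps and Fdft1) shared at least 20% of their windows with other genes, and 14 of the other 22 were called lower.

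Of the 9 genes of the sterol ring steps, 6 were called lower and the median log2 fold change was -0.39. Dhcr7, 7-dehydrocholesterol reductase, which makes cholesterol in the last step of the Kandutsch-Russell branch, was at 4934, 4375 and 4474 in the GalNAc-siNC mice and at 2894, 2776 and 2869 in the GalNAc-siRnf10 mice. It fell by 38.1%, a log2 fold change of -0.69 (SE 0.0656, adjusted p = 1.07e-06). Cyp51, lanosterol 14-alpha-demethylase, was at 9724, 8442 and 8938 against 6208, 5922 and 6390, a log2 fold change of -0.55 (SE 0.0631, adjusted p = 1.03e-05). Its exons overlap Akap9 by 166 bases on the opposite strand, and the counts of Akap9 were below the difference between the groups. Msmo1 and Nsdhl, which with Hsd17b7 remove the methyl groups at carbon 4, had log2 fold changes of -0.49 (SE 0.0565, adjusted p = 1.09e-05) and -0.39 (SE 0.0706, adjusted p = 0.00116). Hsd17b7, the keto-reductase of that step, was at 3499, 2811 and 3122 against 2301, 2114 and 2480, a log2 fold change of -0.45 (SE 0.0832, adjusted p = 0.00128). Sc5d, lathosterol oxidase, was at 18099, 15673 and 16977 against 13793, 13905 and 13685. It was among the most abundant of the 26 genes and fell by 18.5%, a log2 fold change of -0.29 (SE 0.0584, adjusted p = 0.00227).

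The other 3 genes of the ring steps were not called. Ebp, the sterol delta8-delta7 isomerase that acts between called enzymes of the pathway, was at 5445, 5797 and 6114 in the GalNAc-siNC mice and at 6356, 6248 and 6089 in the GalNAc-siRnf10 mice. Its log2 fold change was 0.11 (95% interval -0.021 to 0.23, adjusted p = 0.276), and the interval excludes a fall as large as that of Sc5d or Dhcr7. Tm7sf2 and Lbr both encode sterol C14-reductases, and Lbr is also a protein of the inner nuclear membrane. Tm7sf2 was at 2681, 3177 and 3353 against 2683, 2731 and 2642, a log2 fold change of -0.19 (95% interval -0.36 to -0.029, adjusted p = 0.115). Without GalNAc-siNC mouse 1 its log2 fold change was -0.28 (adjusted p = 0.000152), and Vps51 shares 532 bases of its exons on the same strand. Lbr was at 272, 215 and 218 against 238, 211 and 258, and its log2 fold change was -0.00030 (95% interval -0.29 to 0.28, adjusted p = 0.999).

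Of the 6 genes listed as regulators and targets, Mylip among them, 3 were called lower and the median log2 fold change was -0.21. Srebf2 itself was at 2658, 2878 and 2501 in the GalNAc-siNC mice and at 1772, 1781 and 1817 in the GalNAc-siRnf10 mice. It fell by 33.2%, a log2 fold change of -0.58 (SE 0.07, adjusted p = 1.76e-05), and the treated mice had an SD of 23.5 around a mean of 1790. Insig1, which encodes an INSIG protein and is itself a target of SREBP2, was at 11019, 10563 and 10999 against 8476, 8127 and 8270. This was a log2 fold change of -0.39 (SE 0.0539, adjusted p = 8.23e-05). Insig2, its paralog, was at 2151, 1968 and 2010 against 2167, 2014 and 2199, a log2 fold change of 0.06 (95% interval -0.089 to 0.2, adjusted p = 0.652). Scap, the escort protein, was at 3292, 4244 and 3386 against 2930, 2756 and 3032, a log2 fold change of -0.33 (SE 0.0877, adjusted p = 0.0217). Its call rests partly on GalNAc-siNC mouse 2, the highest, without which it was -0.20 (adjusted p = 0.0561), and it also lost its call with any 1 of the GalNAc-siRnf10 mice left out (adjusted p = 0.0595 to 0.117).

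Stard4, a carrier of cholesterol through the cytosol and a known SREBP2 target, was at 4998, 4565 and 5289 against 4510, 4555 and 4775. The groups overlapped, and the log2 fold change of -0.10 was not called (95% interval -0.24 to 0.037, adjusted p = 0.349). Mylip, a ubiquitin ligase whose gene is driven by LXR, had 105, 116 and 124 against 113, 123 and 114, a log2 fold change of 0.03 (95% interval -0.31 to 0.37, adjusted p = 0.935). Its counts were the lowest of the 26 genes.

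**Figure D3:**
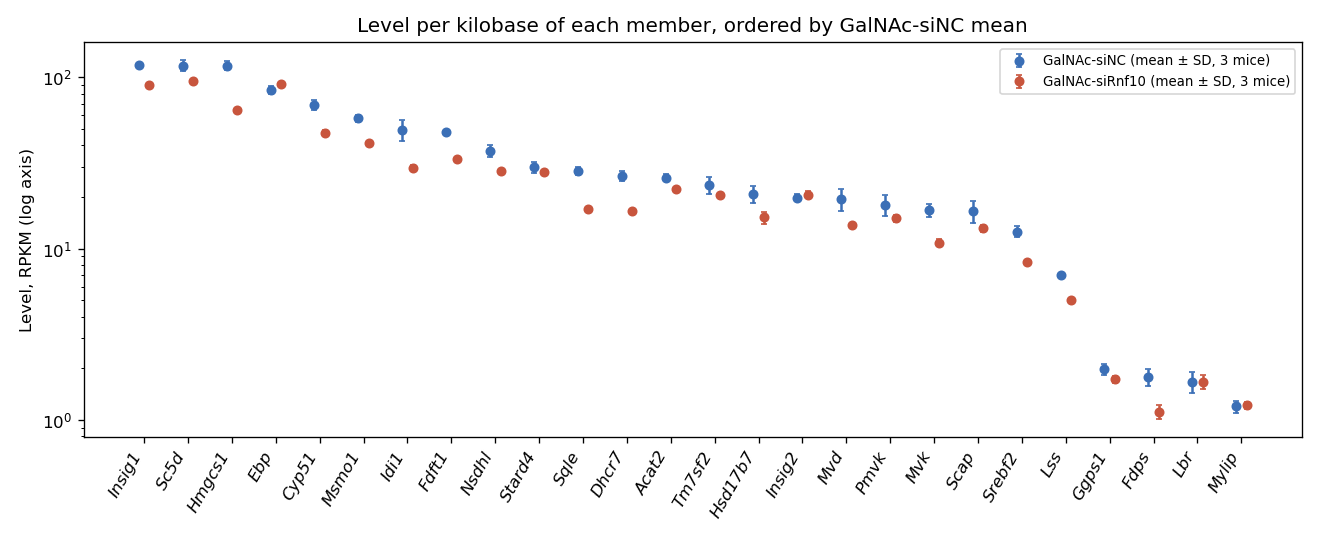
Level per kilobase (RPKM, log axis) of the 26 genes, ordered by their GalNAc-siNC mean. Points are means of 3 mice per group and bars are SD; GalNAc-siNC means run from 1.20 (Mylip) to 118 (Insig1).

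Levels were compared between genes per length, as counts scaled by the length of the deposited gene model and by library size (RPKM). In the GalNAc-siNC mice Insig1 (118 ± 2.81 RPKM, SD, n = 3 mice), Sc5d (117 ± 8.41) and Hmgcs1 (117 ± 6.86) were the most abundant and did not differ beyond their spread. Ebp followed at 84.4 ± 4.88 and Cyp51 at 69.0 ± 4.94. Among the enzymes, Ggps1 at 1.97 ± 0.148, Fdps at 1.78 ± 0.207 and Lbr at 1.66 ± 0.229 were the least abundant, and their levels did not differ beyond their spread. In the GalNAc-siRnf10 mice the order at the top changed, to Sc5d at 95.6 ± 0.763, Ebp at 90.9 ± 1.95, Insig1 at 90.4 ± 1.91 and Hmgcs1 at 64.2 ± 1.19. There the levels of Ebp and Insig1 did not differ beyond their spread. The length is that of all annotated exons of a gene, so a long gene model, as for Lss at 7.02 ± 0.199, lowers a level on this scale.

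Promoters were searched for the elements through which SREBP2 and its partners bind, because 18 of the genes moved together. RefSeq promoter windows (GRCm38.p6, 250 bases before to 50 after the start) were matched by symbol for 22 of the 26 genes. Fdps, Fdft1, Sqle and Stard4 had no window and were not searched. On both strands, the sterol regulatory element letters CACNCCAC were in 3 of the 22 genes (13.6%) and in 7.12% of all genes with a window. The longer form TCACNCCAC, which contains the shorter, was in 1 of the 22 (4.55%) and in 1.44% of all genes. CCAAT, the NF-Y box, was in 20 of the 22 (90.9%) and in 41.1% of all genes. GGGCGG, the Sp1 box, was in 20 of the 22 (90.9%) and in 38.2% of all genes. The 27025 genes with a window were not limited to the 14046 genes tested, which include all 26 genes. Shares among tested genes alone were not computed, so the shares of all genes are not a matched comparison. Of the 15 called genes with a window and the 7 that were not called, CACNCCAC was in 3 and 0, TCACNCCAC in 1 and 0, GGGCGG in 15 and 5, and CCAAT in 13 and 7, and these splits were not tested. A match of letters is a description, not a bound site. The 30 bases around each CACNCCAC match are shown because they hold the letters of the sterol element, on the strand of the gene, with the match in capitals. GTGGCGTG is the same element read on the other strand, and positions count back from the start of the transcript.
Hmgcs1, position -136, chr13:119690204-119690233, plus strand: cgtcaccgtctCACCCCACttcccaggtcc
Insig1, position -9, chr5:28071392-28071421, plus strand: cgtgtagtgtcGTGGCGTGtaccttccatg
Acat2, position -181, chr17:12960888-12960917, minus strand: tggatcctccaCACCCCACcctaacccgac
Acat2, position -53, chr17:12960760-12960789, minus strand: cgtgaggaggcGTGGCGTGgaggccatagc
The 3 genes that hold these letters included the largest (Hmgcs1) and the smallest (Acat2) fall of the called genes.

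Other genes of the pathway, from lists drawn up with earlier results of these data known, moved less uniformly. Of 13 further synthesis genes and SREBP2 targets, 12 were tested, 5 were called lower and 2 higher, with a median log2 fold change of -0.08. Among the lower genes Rdh11, a retinol dehydrogenase, fell by 0.54 (adjusted p = 0.000137). Aacs, acetoacetyl-CoA synthetase, rose by 0.41 (adjusted p = 0.00114), and Por, the electron donor of Cyp51 and squalene epoxidase, rose by 0.29 (adjusted p = 0.0178), but was not called with GalNAc-siNC mouse 3 or any 1 of the GalNAc-siRnf10 mice left out.

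**Figure D4:**
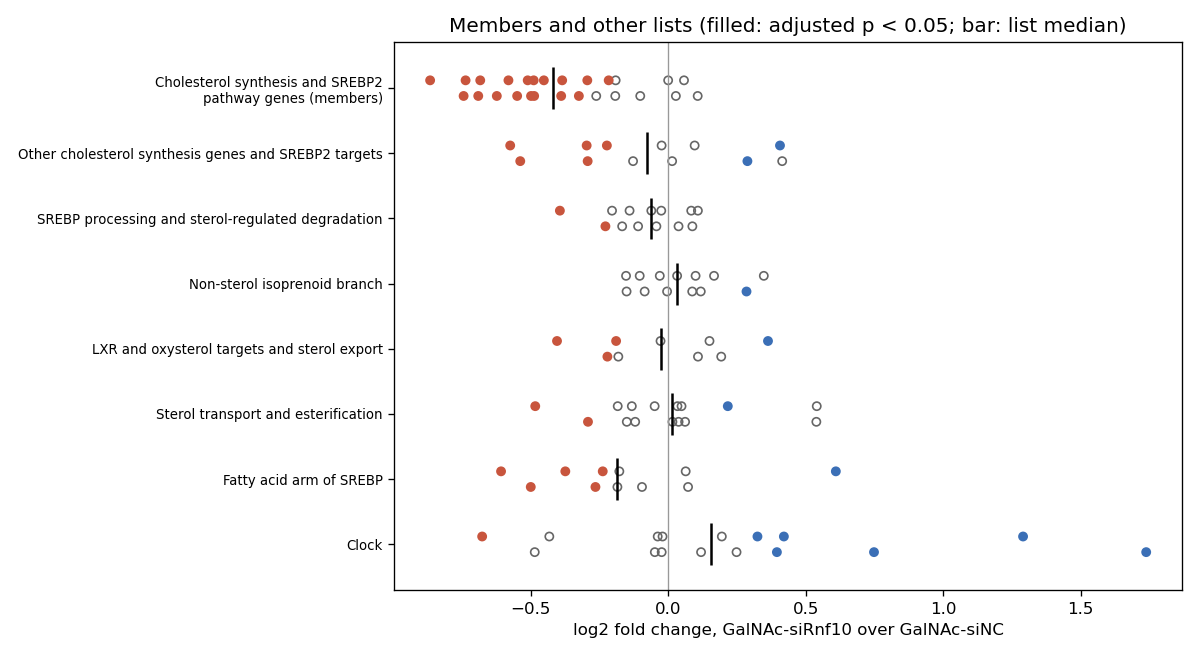
Log2 fold change, GalNAc-siRnf10 over GalNAc-siNC (x axis), of each tested gene of the 26 (top) and of 7 other lists. Filled points are called (red lower, blue higher), open points are not called and vertical bars are list medians, which were -0.42 for the 26 genes and between -0.18 and 0.16 for the other lists.

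Of 13 genes that process SREBP or degrade sterol-regulated proteins, 2 were called lower and 0 higher by edgeR, and the median log2 fold change was -0.06. These were Sec24d (-0.39, adjusted p = 0.000421), a coat protein of the vesicles that leave the endoplasmic reticulum, and Erlin1 (-0.23, adjusted p = 0.0353), which takes part in degradation at that membrane. Of 13 genes of the non-sterol isoprenoid branch, which makes dolichol, ubiquinone and prenyl groups, 1 was called higher and 0 lower, and the median was 0.03. It was Rabggtb, a subunit of Rab geranylgeranyl transferase (0.28, adjusted p = 0.0326). It and Coq2, an enzyme of ubiquinone synthesis that was not called (-0.0042, adjusted p = 0.982), were the most abundant of that list per length. Erlin1 and Rabggtb were not called with any 1 of the GalNAc-siRnf10 mice left out, nor was Rabggtb without GalNAc-siNC mouse 2.

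Of 9 tested genes of the LXR and oxysterol list, 3 were called lower and 1 higher, with a median of -0.03. Lpcat3 (-0.40, adjusted p = 0.000698), Abca1 (-0.22, adjusted p = 0.0332) and Cyp7b1 (-0.19, adjusted p = 0.031) fell, and Abcg5, which with its partner exports sterols into bile, rose (0.36, adjusted p = 0.00398). Of 15 genes of sterol transport and esterification, 2 were called lower and 1 higher, with a median of 0.02. Scarb1, the receptor for high density lipoprotein (-0.48, adjusted p = 9.18e-05), and Npc1, which releases cholesterol from lysosomes (-0.29, adjusted p = 0.00835), fell, and Stard5 rose (0.22, adjusted p = 0.0316). Abca1, Cyp7b1 and Stard5 lost their calls with GalNAc-siNC mouse 3 or any 1 of the GalNAc-siRnf10 mice left out, and Stard5 also without GalNAc-siNC mouse 2. Cyp7b1 was not called by DESeq2 either (adjusted p = 0.0603). Abcg5 lost its call without GalNAc-siRnf10 mouse 1, and Npc1 without GalNAc-siRnf10 mouse 3.

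Of 11 tested genes of the fatty acid arm, which the related factor SREBP1 controls, 5 were called lower and 1 higher, with a median of -0.18. Acacb (-0.61, adjusted p = 4.19e-05), Scd1 (-0.50, adjusted p = 1.29e-05), Acaca (-0.37, adjusted p = 0.00114), Fasn (-0.26, adjusted p = 0.00897) and Fads1 (-0.24, adjusted p = 0.00986) fell. Elovl6, an elongase, rose (0.61, adjusted p = 5.29e-06). Fasn was at -0.095 when GC content and gene length were corrected for (adjusted p = 0.165), and was not called without GalNAc-siRnf10 mouse 2 or 3. Fads1 was not called with any 1 of the GalNAc-siRnf10 mice left out.

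Genes of the circadian clock and markers of other liver cells moved with the same groups. Of 16 tested clock genes, 6 were called higher and 1 lower, with a median of 0.16. Per1 (1.74), Ciart (1.29), Cry1 (0.75), Per2 (0.42) and Per3 (0.40) were among those that rose, and Nr1d1 fell by 0.68 on the log2 scale. Among hepatocyte markers, 4 of 6 were called higher, Alb (0.64), Ttr (0.66), Cps1 (0.58) and Cyp2e1 (0.29), while Apoa1 and Asgr1 were not called. The summed normalized count of these 6 was between 1673984 and 1783165 in the GalNAc-siNC mice and between 2485291 and 2569262 in the GalNAc-siRnf10 mice. Most of it was Alb, with a mean of 1159043 ± 85655 against 1805569 ± 35307 (SD, n = 3 mice each). Among 6 stellate cell markers, Dcn (0.36), Reln (0.35) and Colec11 (0.37) rose and Lrat, Des and Rgs5 were not called. The sum went from between 2688 and 2920 to between 3368 and 3470. Among 6 markers of sinusoidal endothelium, Clec4g (0.52) and Lyve1 (0.55) rose and Stab1, Stab2, Kdr and Pecam1 were not called, and the sums were 2199 to 2289 against 2318 to 2435. Among 5 tested cholangiocyte markers, Spp1 fell by 0.90 and Krt19, Krt7, Epcam and Sox9 were not called, and the sums were 2033 to 2073 against 1122 to 1154. Most of that sum was Spp1, with a mean of 1836 ± 45.7 against 982 ± 10.6 (SD, n = 3 mice each). Over the markers that were not called, the sums were 175 to 250 against 150 to 171 for cholangiocytes, 558 to 607 against 515 to 583 for stellate cells, 1813 to 1920 against 1797 to 1872 for endothelium and 171217 to 225398 against 215801 to 218992 for hepatocytes. S100a9, the 1 of 4 neutrophil markers that was tested, fell by 1.43 from at most 46.4 normalized counts. No marker of Kupffer cells (6 tested), blood (3), lymphocytes (2) or adrenal tissue (2) was called at the threshold of edgeR's test, and Hsd3b1 of the adrenal list was at 0 in every library. Of the called markers, Ttr, Reln, Colec11, Lyve1 and S100a9 lost their calls with at least 1 mouse left out. Lyve1 was also not called by DESeq2 (adjusted p = 0.0574), by limma voom (adjusted p = 0.0632) or with the replicate block (adjusted p = 0.0506), nor Colec11 when GC content and gene length were corrected for (0.25, adjusted p = 0.153). The part of these differences in the lower counts of the 26 genes was not tested.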

How the data were processed

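Liver RNA of 6 mice, 3 per treatment, was prepared by the authors as stranded mRNA libraries, sequenced as paired-end reads and, per the labels' processing notes, mapped to GRCm38 (mm10) with HISAT2, and analyzed by the authors with DESeq2. The authors deposited raw counts per Ensembl gene, with no normalization, and the length of each gene model. The counting tool, annotation release, strand setting and HISAT2 version are not given in the sources used here. Total counts were 26854377 to 33058645 per library.

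Samples were grouped by their treatment labels. Counts were fitted with edgeR 4.0.16 (R 4.3.3): low counts were filtered by filterByExpr, libraries scaled by TMM, and treatment was the single covariate of a robust quasi-likelihood fit. P-values were adjusted by Benjamini-Hochberg over the 14046 genes tested. The biological coefficient of variation was 9.28%. Alternatives used DESeq2 1.42.0 and limma 3.58.1. Python 3.11.15, pandas 2.3.3, numpy 2.4.6, scipy 1.17.1 and matplotlib 3.10.9 made the other tables and figures.

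Symbols came from a gene name table (346 of 55487 identifiers had none). Overlaps came from the exon positions in the deposited count table, and shared windows from GENCODE M21. Promoters came from RefSeq. The 26 genes and the lists were chosen with earlier results of these data known. Named genes were Rnf10, the 26 genes, the called genes of each list, the most abundant genes of a list with fewer than 2 calls, and the markers of a list with a called gene. Some called genes of the lists are in the counts, medians and plots but are not reported here by name. A planned comparison of protein sequences was not run.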

Additional observations from a re-analysis of the deposited data

How the results depend on the processing

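Of the 26 genes, between 16 and 20 were called lower and 0 higher under every alternative normalization, filter, tool, block, GC and length correction and left-out mouse, and 16 were called at an adjusted p under 0.01. Requiring at least a 1.5-fold change left 6. Leaving out members that share at least 20% of their windows with other genes, chosen after seeing the data, left 14 called of 22. Over all genes, 1965 calls became 1042 at an adjusted p under 0.01 and 635 with a 1.5-fold change. With 1 mouse left out they ranged from 1053 (without GalNAc-siRnf10 mouse 1) to 2864 (without GalNAc-siNC mouse 1), and were 1128 without GalNAc-siRnf10 mouse 2 and 1128 without mouse 3. The correction for GC content and gene length gave 2527 calls. The cause was not tested.

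Among the 18 called genes, 10 of 270 alternative values lost the call, all of Acat2 or Scap, and no value changed direction. For Acat2 these were DESeq2 (adjusted p = 0.0569), the replicate block (adjusted p = 0.0645), GalNAc-siNC mouse 3 left out and each GalNAc-siRnf10 mouse left out. For Scap they were GalNAc-siNC mouse 2 or any GalNAc-siRnf10 mouse left out. Pmvk and Tm7sf2 gained a call in 7 of 120 values of the other genes, among them limma voom and the fit without GalNAc-siNC mouse 1. Values near 0 changed sign. Lbr was at 0.00055 with DESeq2, 0.052 with limma voom, 0.0069 with the replicate block, 0.12 without GalNAc-siNC mouse 1, -0.069 without GalNAc-siRnf10 mouse 3 and 0.075 without GalNAc-siRnf10 mouse 2. Mylip was at -0.0073 with limma voom, -0.034 without GalNAc-siNC mouse 1 and -0.015 without GalNAc-siRnf10 mouse 2, and at 0.080 without GalNAc-siNC mouse 3. Of 615 alternative values of 41 called genes from the other lists and markers, 68 lost the call, in 18 genes, and none changed direction. Rnf10 stayed between -1.27 and -1.11.

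The mice of the groups share replicate numbers in the labels but are different animals, and same-numbered mice did not deviate together (correlations of -0.00099, 0.027 and -0.034). With the replicate block 17 of the 26 genes were called lower, and 1816 over all genes. At this depth the genes with few counts, Mylip, Fdps, Lbr and Ggps1, have the widest intervals.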

Other observations

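The ratio of the normalized count of Insig1 to that of Insig2, a pair chosen after their values were seen, was 5.12, 5.37 and 5.47 in the GalNAc-siNC mice and 3.91, 4.04 and 3.76 in the GalNAc-siRnf10 mice (5.32 ± 0.18 and 3.90 ± 0.138, SD, n = 3 each). It restates the fall of Insig1, since Insig2 was not called, and is given as a description with no test.

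The GalNAc-siRnf10 mice varied less among themselves than the GalNAc-siNC mice. In 25 of the 26 genes the coefficient of variation was smaller in the GalNAc-siRnf10 group, with a median of 2.95% against 7.27%. Over all genes tested the medians were 7.33% and 11.1%. They were 4.94% and 8.62% over the 9475 tested genes with a GalNAc-siNC mean count at or above that of Mylip. With 3 mice per group, these values describe the libraries and were not tested.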
